A study of Mus musculus with 2 samples.

Results

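The genes described here mark the first neurons of the cerebral cortex, which settle in the preplate. They are *Reln*, *Tbr1*, *Trp73*, *Calb2*, *Ebf1*, *Ebf2*, *Ebf3*, *Nhlh1* and *Nhlh2*, chosen by symbol from what is known of these neurons. That choice was made with earlier results of these data known. All 9 were present among the 29311 genes listed in the expression tables. The study compared the 3D organization and the transcription of *Hox* clusters between embryonic stem (ES) cells and embryonic tissues. RNA-seq was available for wild-type ES cells of the E14 line and for wild-type forebrain cells of B6CBAF1/J embryos of day E10.5, with 1 sample of each. Strain, cell source and cell type differ together between both samples and cannot be told apart. The methods give single embryos as the source of forebrain RNA, whereas the labels give the same number of cells for either sample. There were no replicates, so none of the differences below has a replicate check and no test was made.

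Cajal-Retzius cells are among the preplate neurons. They arise from the margins of the cortical field, among them the cortical hem. From there they spread over the surface of the telencephalon before the cortical plate forms. Cajal-Retzius cells secrete Reelin, a large extracellular glycoprotein that binds lipoprotein receptors on migrating neurons and leads to phosphorylation of the adaptor Dab1. In the mouse the earliest of these neurons are born at about the stage sampled here, at which most cells of the forebrain wall are still dividing progenitors. Several of the genes also mark other embryonic cells. The Ebf factors, for instance, are also found in mesenchyme and in sensory neurons outside the brain.

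Expression was deposited as RPKM, reads per kilobase of exon scaled per sample by the authors. Most values of low genes lay near whole multiples of a step, taken as the contribution of 1 read, which gave 42730636 reads on genes for the ES cell library and 59770104 for that of forebrain. Reads per gene were inferred from that step. Intervals are exact Poisson 95% intervals on these reads and cover counting error only. The labels of both samples matched their markers. All 8 ES cell genes listed, among them *Pou5f1* and *Nanog*, were at least 4-fold higher in ES cells, and all 9 telencephalic progenitor genes that were listed, among them *Emx2* and *Lhx2*, were at least 4-fold higher in forebrain. Of the genes of hindbrain and spinal cord, 0 of 6 were higher in forebrain by that measure.

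Sequences 5′ of the transcription start were taken from RefSeq (table of GRCm38.p6) for 7 of the 9 genes, and each was placed in NCBIM37 (mm9), the build of the expression tables, by its only exact match. Those of *Nhlh1* and *Nhlh2* are shown because the levels of this pair differ from each other in forebrain, that of *Reln* because it encodes the product for which Cajal-Retzius cells are known, and both of *Ebf1* because the reads on its 5′ end differed between samples. Each line holds the 250 bases before the start on the strand of the gene, 5′ to 3′, with capitals marking CAGATG or CCCNNGGG.
Nhlh1, chr1:173987728-173987977 (-): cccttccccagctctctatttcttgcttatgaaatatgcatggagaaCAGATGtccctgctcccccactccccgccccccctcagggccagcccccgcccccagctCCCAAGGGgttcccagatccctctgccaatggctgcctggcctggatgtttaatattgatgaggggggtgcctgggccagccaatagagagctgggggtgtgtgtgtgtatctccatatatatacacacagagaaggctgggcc
Nhlh2, chr3:101813818-101814067 (+): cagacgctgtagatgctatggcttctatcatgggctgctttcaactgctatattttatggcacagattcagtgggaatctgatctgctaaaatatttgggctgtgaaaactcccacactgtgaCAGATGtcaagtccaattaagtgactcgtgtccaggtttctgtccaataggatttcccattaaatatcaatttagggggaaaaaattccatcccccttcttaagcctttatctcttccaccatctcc
Reln, chr5:21850524-21850773 (-): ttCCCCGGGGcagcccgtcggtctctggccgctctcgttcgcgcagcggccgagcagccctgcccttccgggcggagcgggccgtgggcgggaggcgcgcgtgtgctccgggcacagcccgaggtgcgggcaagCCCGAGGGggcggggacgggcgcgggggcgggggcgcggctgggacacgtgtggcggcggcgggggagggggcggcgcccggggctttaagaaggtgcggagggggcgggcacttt
Ebf1, upstream start, chr11:44431352-44431601 (+): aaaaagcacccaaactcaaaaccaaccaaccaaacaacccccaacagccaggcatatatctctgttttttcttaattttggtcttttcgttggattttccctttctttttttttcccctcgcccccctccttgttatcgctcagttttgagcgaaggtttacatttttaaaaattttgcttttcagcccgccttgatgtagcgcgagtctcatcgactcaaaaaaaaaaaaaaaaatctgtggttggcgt
Ebf1, downstream start, chr11:44433480-44433729 (+): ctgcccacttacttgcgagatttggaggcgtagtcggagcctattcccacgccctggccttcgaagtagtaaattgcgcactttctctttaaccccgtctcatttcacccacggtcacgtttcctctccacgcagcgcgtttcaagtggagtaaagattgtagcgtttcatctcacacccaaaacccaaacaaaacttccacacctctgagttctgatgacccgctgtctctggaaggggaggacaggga

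CAGATG is a form of the E-box that basic helix-loop-helix (bHLH) factors bind, and CCCNNGGG is the core of the palindrome bound by Ebf factors. Both strands were searched, and positions are those of the first base, counted back from the start. CAGATG occurred before the start of *Nhlh1* (at -203) and *Nhlh2* (at -127), and in 14.4% of the 32851 RefSeq promoters of the same length. CCCNNGGG occurred before *Reln* (at -248 and -116), *Nhlh1* (at -144) and *Ebf3* (at -21), and in 11.8% of all promoters. The E-box CAGCTG was found for *Trp73* alone among these genes and in 13% of all promoters. The T-box sequence AGGTGTNA was found in 0 of the 9 promoters of these genes and in 2.68% of all. No match of one motif overlapped that of another in the lines above, and a match is a description of the sequence alone. GC content ranged from 40.0% at the upstream *Ebf1* start to 80.0% at *Reln* and *Ebf3*, compared with a median of 52.4% over all promoters.

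All 9 genes had a higher RPKM as deposited in E10.5 forebrain than in ES cells, though the sign for *Trp73* and *Calb2* depended on how the samples were scaled. For 6 of them (*Reln*, *Tbr1*, *Ebf2*, *Ebf3*, *Nhlh1* and *Nhlh2*) the difference was at least 4-fold on log2(RPKM + 1), the size used throughout to call a gene higher in either sample. This share stands beside 14.4% of all listed genes called higher in forebrain, or 15.6% of the 19620 protein-coding genes. The other 3 genes (*Trp73*, *Calb2* and *Ebf1*) differed by less than 4-fold. None of the 9 was called higher in ES cells, where 11.3% of all listed genes were. The median log2 ratio of forebrain over ES cells was 3.74 over the 9 genes and 0.01 over all listed genes. In bulk RNA, a lower level can reflect fewer cells of a type or less RNA per cell, which cannot be told apart.

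**Figure D1:**
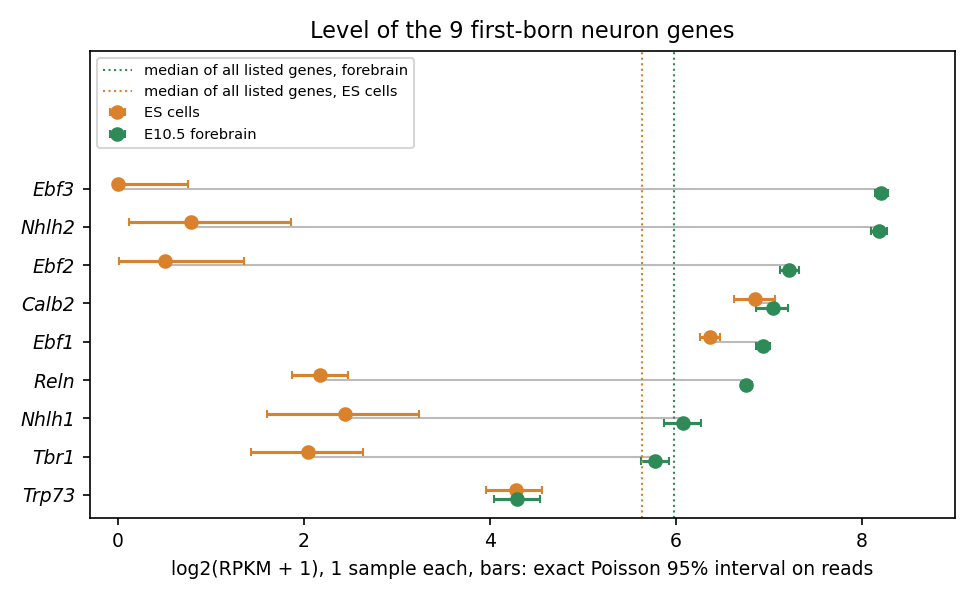
Level of each gene on a log2(RPKM + 1) scale in ES cells (orange) and E10.5 forebrain (green), 1 sample each, with exact Poisson 95% intervals on inferred reads as bars (for *Ebf3* in ES cells, without reads, the bar ends at the floor of 3 reads). Dotted lines mark the median of all 29311 listed genes in each sample, and for 7 genes the forebrain value lies above its line, whereas in ES cells only those of *Calb2* and *Ebf1* do.

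*Reln* (ENSMUSG00000042453, chr5:21390272-21850523, minus strand) encodes Reelin itself. Its RPKM was 3.51 in ES cells (57 reads, interval 2.66 to 4.55) and 107.44 in E10.5 forebrain (2602 reads, 103.33 to 111.63). The forebrain level was 30.6-fold that of ES cells (interval 23.5 to 40.5), a log2 ratio of 4.59. A transcript on the opposite strand, *Gm10475*, had 439 reads in ES cells and shares 246 bp of exon with *Reln*. Its part in the 57 reads of *Reln* in ES cells was not tested. With 19845 bp over all its annotated exons it has the longest exonic length of the group, and its forebrain value rests on the most reads. It lay at percentile 55.9 of listed genes in forebrain and at percentile 24.8 in ES cells.

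*Tbr1* (ENSMUSG00000035033, chr2:61640987-61652171, plus strand) encodes a T-box factor of early-born glutamatergic cortical neurons. Its RPKM was 3.12 in ES cells (14 reads, 1.71 to 5.23) and 53.97 in forebrain (361 reads, 48.49 to 59.77), which is 17.3-fold higher (10.2 to 31.9). The next gene, *Trp73* (ENSMUSG00000029026, chr4:153430358-153514317, minus strand), encodes a member of the p53 family that Cajal-Retzius cells of the hem express. Its RPKM was 18.41 in ES cells (83 reads, 14.59 to 22.71) and 18.64 in forebrain (126 reads, 15.53 to 22.19). The ratio of 1.01 has an interval of 0.765 to 1.36, so that a difference could not be detected at this depth. *Trp73* was the lowest of the 9 genes in forebrain, at percentile 38.2, but the third highest in ES cells. RefSeq gives *Trp73* a pair of starts, 333 and 43035 bases downstream of the 5′ end annotated in NCBIM37. A single value per gene does not separate the transcripts from each.

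*Calb2* (ENSMUSG00000003657, chr8:112661402-112692110, minus strand) encodes calretinin, a calcium-binding protein used to label Cajal-Retzius cells. It was the highest of the 9 genes in ES cells, with an RPKM of 114.59 (163 reads, 97.49 to 133.34). In forebrain its RPKM was 130.95 (278 reads, 115.83 to 147.05). The intervals of both samples overlap, and that of the ratio, 1.14, runs from 0.939 to 1.4. *Calb2* therefore lay at nearly the same rank in both samples, percentile 59.3 in ES cells and 58.2 in forebrain. The sign of the small differences of *Calb2* and *Trp73* changed with the scaling of the samples, from -0.16 to 0.46 and from -0.32 to 0.28 on the log2 scale.

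The Ebf genes encode helix-loop-helix transcription factors with a shared DNA-binding domain, and their levels diverged in ES cells. *Ebf3* (ENSMUSG00000010476, chr7:144385356-144506128, minus strand) had no read in ES cells and an RPKM of 295.61 in forebrain (1911 reads, 282.57 to 309.24). A set floor of 3 reads, which is not the end of a Poisson interval, stands at an RPKM of 0.69 for it in ES cells. Against this floor of 3 reads it was at least 427-fold higher in forebrain. *Ebf2* (ENSMUSG00000022053, chr14:67852129-68048604, plus strand) had an RPKM of 0.42 in ES cells and of 148.18 in forebrain (785 reads, 137.94 to 158.85). The ES cell value corresponds to 1.49 inferred reads, rounded to 1 for its interval (0.01 to 1.57). The ratio of both RPKM values is 353, and its interval, from the rounded reads, is 94.2 to 20800. Thus *Ebf3* and *Ebf2* were at or near the limit of detection in ES cells and lay at percentiles 69.5 and 59.8 in forebrain.

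*Ebf1* (ENSMUSG00000057098, chr11:44430819-44821593, plus strand), best known as a regulator of B lymphocytes, differed less between the samples. Its RPKM was 81.82 in ES cells (653 reads, 75.66 to 88.34) and 121.64 in forebrain (1448 reads, 115.42 to 128.03). The forebrain level was 1.49-fold that of ES cells (1.35 to 1.63), below the size used for a call. *Ebf1* accounted for nearly all of the summed Ebf level in ES cells, where the 3 genes together reached 82.24, compared with 565.43 in forebrain. The longest coding sequences of the Ebf genes share 73.8% (*Ebf1* and *Ebf2*), 76.0% (*Ebf2* and *Ebf3*) and 79.6% (*Ebf1* and *Ebf3*) of their aligned bases. None of their 50-base stretches occurred in a protein-coding transcript of another gene, so that among protein-coding transcripts such stretches are specific to each gene.

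*Ebf1* has a further entry in the tables, an annotated pseudogene (ENSMUSG00000078561, chr11:44430819-44431275) whose 453 bp lie entirely inside the first exon of *Ebf1* on the same strand. In ES cells this 5′ segment had an RPKM of 17.07 (6 reads, 5.94 to 35.24), which is 0.209 times the level of the whole gene (0.073 to 0.431). In forebrain it had 123.56 (68 reads, 95.5 to 155.91), or 1.016 times the whole gene (0.785 to 1.282). A coverage equal to that of the gene would have given 30.3 reads in ES cells and 67.2 in forebrain. The segment was thus as covered as the rest of *Ebf1* in forebrain but not in ES cells, and its forebrain level was 7.24-fold that of ES cells (3.32 to 21.4). The NCBIM37 annotation gives 4 coding transcripts of *Ebf1* with starts at 44430819 and 44431681, of which the latter leaves out the segment. Both RefSeq starts shown above lie downstream of the segment as well, at 783 and 2911 bases from the annotated 5′ end. How reads in overlapping genes were assigned is not given in the sources used here, and the share of transcripts from each start was not tested.

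**Figure D2:**
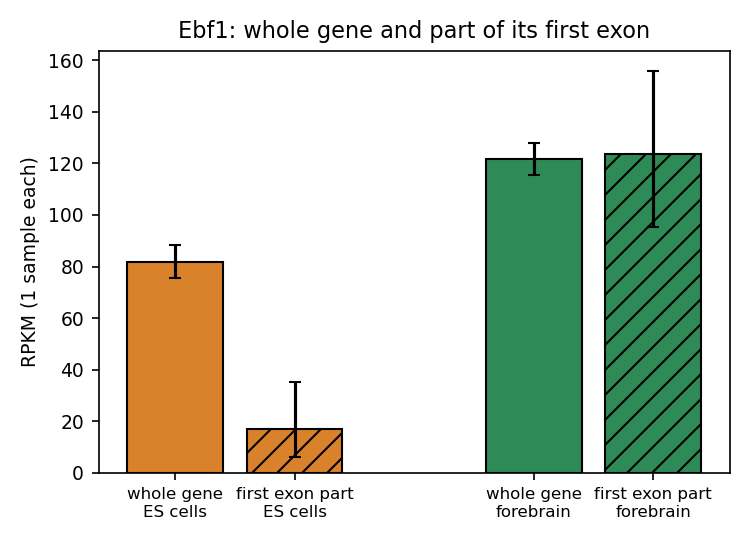
RPKM (linear axis from 0) of the whole *Ebf1* gene (plain bars) and of the 453 bp inside its first exon (hatched bars) in ES cells (orange) and E10.5 forebrain (green), 1 sample each, with exact Poisson 95% intervals. The segment lies at 17.07 against 81.82 for the gene in ES cells, and at 123.56 against 121.64 in forebrain.

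*Nhlh1* and *Nhlh2* encode small bHLH factors of newly formed neurons. *Nhlh2* (ENSMUSG00000048540, chr3:101814068-101819415, plus strand) had an RPKM of 0.73 in ES cells from 2 reads (0.09 to 2.63) and of 290.5 in forebrain (1189 reads, 274.24 to 307.52), a ratio of 398 (110 to 3290). For *Nhlh1* (ENSMUSG00000051251, chr1:173982423-173987704, minus strand) the RPKM was 4.46 in ES cells (9 reads, 2.04 to 8.48) and 66.48 in forebrain (200 reads, 57.6 to 76.38), a ratio of 14.9 (7.69 to 33.0). In forebrain *Nhlh2* was thus the more abundant of the pair per length of exon, whereas in ES cells both were low. Together they summed to 356.98 in forebrain and 5.19 in ES cells. Their coding sequences are 74.9% identical over 390 aligned bases. No 50-base stretch of *Nhlh1* and 0.152% of those of *Nhlh2* occurred in protein-coding transcripts of other genes.

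**Figure D3:**
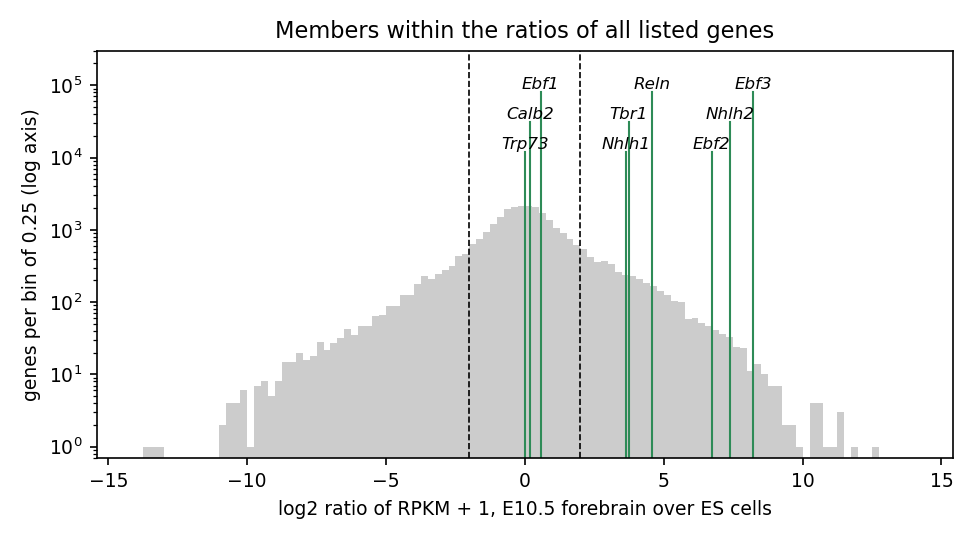
Log2 ratio of RPKM + 1, E10.5 forebrain over ES cells, of all 29311 listed genes (grey histogram, bins of 0.25, log axis) with the 9 genes as green lines and dashed lines at the 4-fold size. *Trp73*, *Calb2* and *Ebf1* lie between the dashed lines at 0.02 to 0.57, and the other 6 genes lie at 3.63 to 8.21.

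In E10.5 forebrain the 9 genes spanned a 15.9-fold range of RPKM, which is a level per length of exon. *Ebf3* and *Nhlh2* were the highest and had overlapping intervals. *Ebf2*, *Calb2* and *Ebf1* followed, each overlapping with the next. *Reln* came below *Ebf1* with no overlap, then *Nhlh1* and *Tbr1*, which overlapped, and last *Trp73*, which stood apart from *Tbr1*. None of the 9 reached the upper quartile of listed genes, which begins at an RPKM of 416.475 in forebrain, while 7 were above the median of 62.37. All 9 are protein-coding, and their ranks were lower among the 19620 protein-coding genes. There only *Ebf3* (percentile 64.3), *Nhlh2* (63.9), *Ebf2* (52.6) and *Calb2* (50.7) lay above the median. *Ebf1* (49.8), *Reln* (48.2), *Nhlh1* (42.7), *Tbr1* (40.7) and *Trp73* (31.7) lay below it.

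In ES cells the order was different. *Calb2*, *Ebf1* and *Trp73* stood apart from each other and from the rest, and together held 94.6% of the summed level of the 9 genes. The other 6 genes, from *Nhlh1* at 4.46 down to *Ebf3* at 0, each had an interval that overlapped with that of the next. The 9 genes all had 3 or more reads in forebrain, and 6 of them did so in ES cells. The genes called higher in forebrain were the same 6 that were lowest in ES cells. A low ES cell level itself raises the ratio used for the call, so this match is partly built into the measure. Their forebrain levels ran from the highest, *Ebf3*, to the second lowest, *Tbr1*.

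Of 14 Reelin receptor and signalling genes, 3 were called higher in forebrain and 0 in ES cells, near the share of all listed genes (14.4% and 11.3%), with a median log2 ratio of 0.44. These 3 were *Vldlr* (RPKM 4.73 in ES cells and 70.62 in forebrain) and *Lrp8* (26.59 and 111.52), which encode the receptors of Reelin, and *Fyn* (67.86 and 488.02), a kinase that phosphorylates Dab1. *Lrp8* was close to the 4-fold size, with a log2 ratio of 2.03, and was no longer called with the samples scaled to the same upper quartile (1.94) or median (1.69). *Dab1* had an RPKM of 71.23 in ES cells and 70.91 in forebrain. The highest in forebrain were the broadly used genes *Itgb1* (2332.69 and 5403.76), encoding an integrin subunit, *Crk* (1859.05 and 2473.89), encoding an adaptor, *Pafah1b1* (938.41 and 1356.05), encoding Lis1, and *Src* (1120.18 and 1216.83), encoding a kinase. *Yes1*, encoding a related kinase, had 2248.48 in ES cells and 597.09 in forebrain, a log2 ratio of -1.91 that became -2.26, past the 4-fold size, with the same median. *Vldlr*, *Lrp8*, *Fyn*, *Dab1* and *Yes1* were named after their values were seen.

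Most other genes of Cajal-Retzius and preplate neurons were past the 4-fold size. Of 9 such genes, 7 were called higher in forebrain and 0 in ES cells, with a median log2 ratio of 4.97. Over all listed genes, the basis for this and the list counts below, 14.4% and 11.3% were called. *Cxcr4*, encoding a chemokine receptor by which Cajal-Retzius cells keep beneath the meninges, had an RPKM of 25.66 in ES cells and 884.78 in forebrain, and *Cxcr7*, encoding a receptor for the same chemokine, had 30.45 and 462.88. *Barhl2*, a homeobox gene, had 2.34 and 146.46. *Lhx9*, a LIM-homeobox gene, had no read in ES cells and an RPKM of 76.84 in forebrain, at least 116-fold higher. *Eomes*, encoding a T-box factor related to Tbr1, had 90.06 and 233.7 and was not called.

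Of 10 genes of later cortical layers and of the subplate, 8 were called higher in forebrain, with a median log2 ratio of 4.34. Which cells of the sample express them was not tested. *Tle4*, encoding a corepressor, was the highest of them in forebrain but was not called, with an RPKM of 1127.13 in ES cells and 768.64 in forebrain. The layer genes *Foxp2* (0.41 and 232.29) and *Fezf2* (0.53 and 148.42), both encoding transcription factors of deep-layer neurons, were at 5 reads or fewer in ES cells. *Ctgf*, a subplate marker, had 289.04 and 238.0. *Tbr1*, itself a gene of deep layers, at 53.97 in forebrain lay below *Foxp2* and *Fezf2* per length of exon.

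Among relatives and cofactors, 5 of the 7 genes listed were called higher in forebrain and 1 in ES cells (median log2 ratio 2.47). *Zfp521* and *Zfp423* encode zinc finger proteins that bind Ebf factors. *Zfp521* had an RPKM of 1.97 in ES cells and 802.93 in forebrain, a 408-fold difference (interval 221 to 847), and *Zfp423* had 62.15 and 347.91. The fourth Ebf gene, *Ebf4*, had 0.38 (1 read) and 21.26, far below the other Ebf genes in forebrain. Of the p53 family, *Trp53* had 540.56 and 279.75 and *Trp63* had 0.15 (1 read) and 20.74, so that *Trp63* lay close to *Trp73* (18.64) in forebrain but not in ES cells (18.41). *Tbx21*, the third T-box gene of the *Tbr1* subfamily, was the gene called higher in ES cells, with 12.02 and 1.32.

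The neurogenic bHLH genes, whose factors act around the birth of neurons, were mostly past the 4-fold size. Of 10 genes in this network, 8 were called higher in forebrain and 0 in ES cells (median log2 ratio 4.4). *Tcf12* and *Tcf4*, which encode broadly used dimerization partners of bHLH factors, reached an RPKM of 4158.55 and 505.06 in forebrain from 301.26 and 124.88 in ES cells, and *Tcf4* lost its call with the same upper quartile (log2 ratio 1.92) or median (1.66). *Neurog2*, a proneural gene of the cortex, had 0.55 (1 read) and 399.98. *Neurod2* and *Neurod6*, which mark later cortical neurons, had no read in ES cells and an RPKM of 1.82 (7 reads) and 1.52 (4 reads) in forebrain. *Nhlh2*, at 290.5, thus lay below *Neurog2* in forebrain.

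Of 16 pan-neuronal genes, 11 were called higher in forebrain, among them *Tubb3* (795.19 in ES cells and 3318.34 in forebrain), encoding neuronal tubulin, and *Gap43* (17.64 and 795.43), encoding a growth cone protein. With the samples scaled to the same upper quartile 9 were called, and 8 with the same median, and *Tubb3* was not among them (log2 ratio 2.06 as deposited, 1.97 and 1.71 when scaled). *Stmn2*, encoding a microtubule regulator, was the gene called higher in ES cells, with 6910.29 against 1056.31 in forebrain. *Stmn3*, its relative, had 1309.88 and 1235. The median log2 ratio of the pan-neuronal genes was 2.34, with 4 of them not called in either direction. Besides *Stmn3*, these were *Nefl* (1067.54 in ES cells and 407.24 in forebrain), *Nefm* (302.05 and 158.8) and *Elavl2* (186.7 and 366.77). The summed RPKM of the list was higher in ES cells, 10679.4 against 9186.6 in forebrain, with *Stmn2* the highest gene in ES cells.

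**Figure D4:**
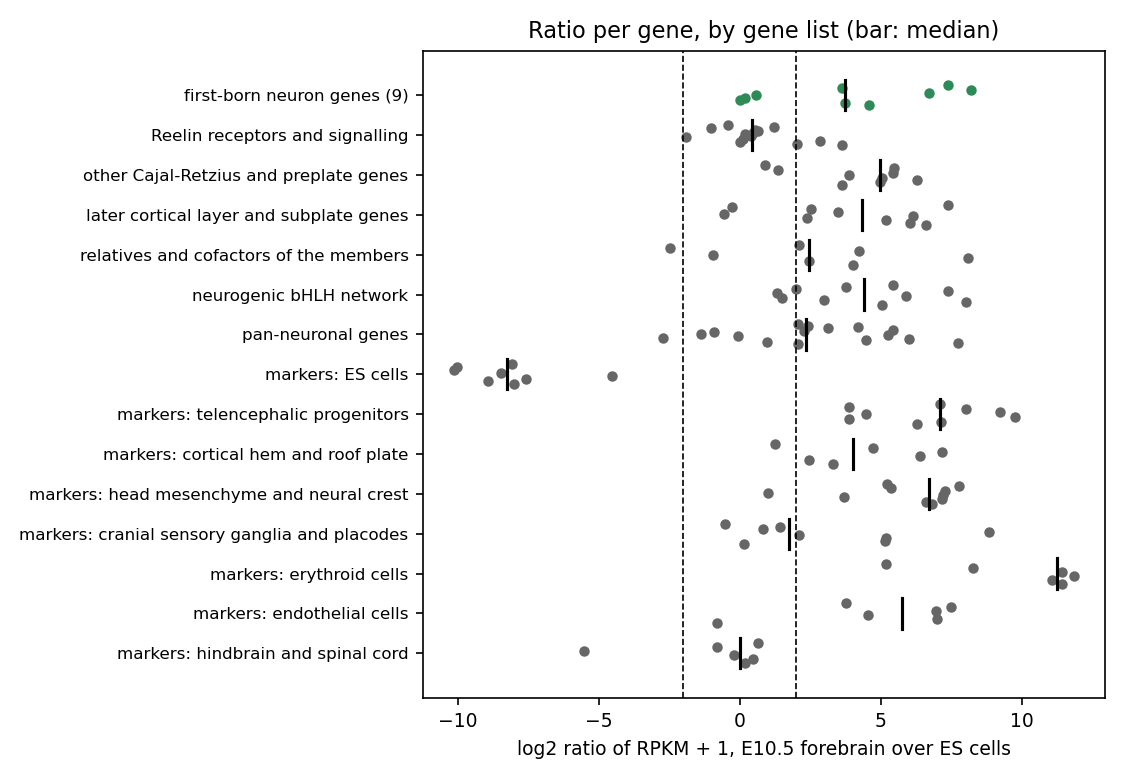
Log2 ratio of RPKM + 1, E10.5 forebrain over ES cells (1 sample each), for each gene (point) of the 9 first-born neuron genes (green) and of 14 gene lists (grey), with the median of each list as a black bar and the 4-fold size as dashed lines. The median of the first-born neuron genes is 3.74, that of the Reelin signalling genes 0.44 and that of the other Cajal-Retzius and preplate genes 4.97.

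Markers of several other cell types of the embryonic head moved with these genes. Head mesenchyme and neural crest genes were called higher in forebrain in 9 of 10 cases, and their summed RPKM was 86.0 in ES cells and 8160.8 in forebrain. None of these was at 0 in forebrain, where the highest were *Col1a2*, a collagen gene, at 3036.77, *Pdgfra*, a growth factor receptor gene, at 1795.6, and the transcription factor genes *Twist1* at 1556.07 and *Foxc1* at 565.36. *Sox10*, which marks migrating neural crest and glia, was the gene not called, with 9.9 in ES cells and 20.68 in forebrain. The summed level of these markers exceeded that of the 9 first-born neuron genes in the same library, 1233.41. Their part in the levels of the Ebf genes and of the others was not tested.

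Genes of cranial sensory ganglia and placodes were called higher in forebrain in 4 of 8 cases, and their sum was 156.6 in ES cells and 1484.8 in forebrain. Among them were *Eya2* (457.55 in forebrain) and *Eya1* (422.38), which placodes use, and *Isl1* (155.16), which sensory and other neurons use. The sensory neuron genes *Pou4f1* (39.86 in ES cells and 43.93 in forebrain) and *Tlx3* (2.39 and 1.34) were not called, and the latter rests on 3 reads in either sample. Per length of exon, *Isl1* lay just above *Ebf2* (148.18) and *Pou4f1* just below *Tbr1* (53.97) in forebrain. The part of ganglion cells in the levels of *Ebf3*, *Nhlh1* and *Nhlh2* was not tested.

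Cortical hem and roof plate genes, which mark a source of Cajal-Retzius cells, were called higher in forebrain in 5 of 6 cases, with a sum of 37.5 in ES cells and 2152.6 in forebrain. *Msx1* had an RPKM of 1491.72 in forebrain, *Rspo1* 360.62, *Lmx1a* 173.69, *Wnt3a* 82.77 and *Wnt2b* 42.41, whereas *Ttr*, a choroid plexus gene, had 1.34 from 2 reads. *Msx1*, which gave most of the forebrain sum, is also used in head mesenchyme. All 6 erythroid genes were called higher in forebrain, where their sum was 799064.7 against 373.2 in ES cells. Endothelial genes were called higher in 5 of 6 cases, with sums of 603.6 in ES cells and 2135.0 in forebrain, and *Pecam1* was not called at 551.14 and 316.51. The genes of hindbrain and spinal cord summed to 607.3 in ES cells and 189.0 in forebrain, and most of each sum came from 1 gene. *Gbx2* had 459.98 in ES cells and 8.98 in forebrain and was called higher in ES cells, and *Phox2a* had 90.57 and 143.51. *En2* had 44.35 and 24.74 and *Egr2* 10.78 and 9.24, while *Hoxb2* and *Hoxb4* had 0.99 and 1.58 in forebrain. The part of blood and vessels in the levels of the 9 genes was not tested.

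**Figure D5:**
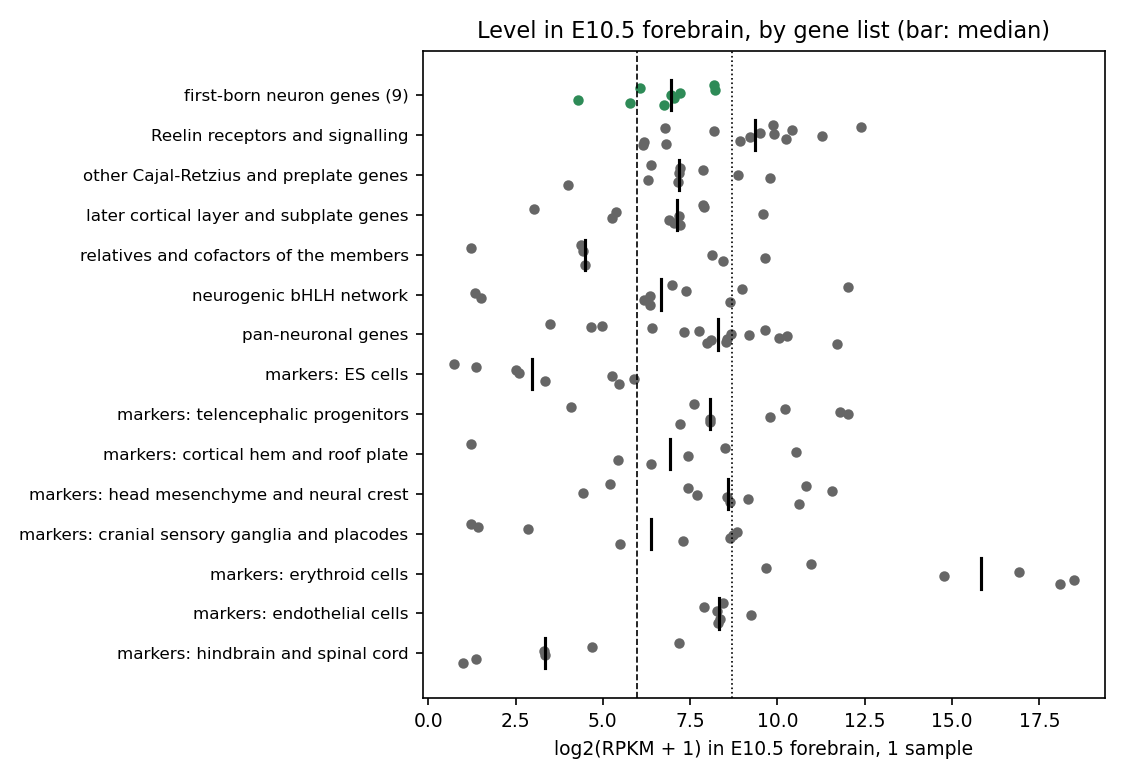
Level in the E10.5 forebrain sample, log2(RPKM + 1), of each gene (point) of the 9 first-born neuron genes (green) and of 14 gene lists (grey), with the median of each list as a black bar. The dashed line marks the median of all listed genes (RPKM 62.37) and the dotted line the start of their upper quartile (416.475), and all 9 first-born neuron genes lie left of the dotted line.

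For each of the 9 genes the nearest other gene was sought by Euclidean distance on log2(RPKM + 1) over both samples, among 21876 genes with at least 10 reads in either. With only 2 points per gene this measures a shared pair of levels and no more. *Sez6l2* was nearest to *Tbr1* (3.17 in ES cells and 53.55 in forebrain), *Kcnab2* to *Nhlh1* (4.6 and 66.59), *Dlx6os1* to *Ebf3* (0 and 289.76) and *Mmrn1* to *Ebf2* (0.42 and 143.28). *Reln* and *Nhlh2* had pseudogenes nearest, *Gm14876* and *Gm5133*, whose reads can be shared with other copies. *Gm11476*, *Ccdc72* and *1700049G17Rik* were nearest to *Trp73*, *Calb2* and *Ebf1*. The number of genes within a distance of 0.5 was 574 for *Calb2* and 482 for *Ebf1*, but 27 for *Ebf3* and 31 for *Nhlh2*, so that few genes shared the levels of the latter.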

How the data were processed

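A single RNA-seq sample of each cell type, ES cells and E10.5 forebrain, was analysed. The authors prepared strand-specific single-end libraries from rRNA-depleted total RNA, mapped the reads to NCBIM37 (mm9) with HTSstation and deposited 1 RPKM value per gene and sample. The methods give reads of 50 bp and the labels of 100 bp. The submitters' processing notes name Bowtie 0.12.7. The scaling between samples and the treatment of overlapping genes are not given in the sources used here. The 4C-seq and ChIP-seq experiments were not analysed here.

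RPKM was used as deposited. Exonic lengths came from the GENCODE annotation of that build, in which all 29311 listed genes have the coordinates of the tables. The value of 1 read per kb was estimated as 1.2223 in ES cells and 0.8193 in forebrain from 4251 and 4563 genes with 200 to 2500 bp of exon and low values. Of these, 57.1% and 58.4% lay within 0.05 of a whole number of reads, where 10.0% would by chance. Inferred reads are therefore estimates. Ratios were taken on log2(RPKM + 1), which understates the change of low genes, and a gene was called from a 4-fold difference. Folds and their intervals are plain ratios of RPKM, with Clopper-Pearson 95% intervals on the share of reads. A floor of 3 reads was used for genes without reads.

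The 9 genes and the lists were chosen with earlier results of these data known. Named are the 9 genes, lists of up to 6 genes in full, the 4 genes of each longer list highest in forebrain, those called higher in ES cells, defining markers at 0 and the nearest gene by pattern. Others were named after their values were seen, and some genes that meet these criteria were left undescribed. *Scgn* and *Sox1* were not analysed here. Some list genes are counted but not reported by name here. Protein sequences were planned but not used here. Estimation of the step and the calls were tested on simulated data. These held whole reads for every gene, so that values off whole numbers were not covered. Computations used pandas 2.3.3, Biopython 1.88, scipy 1.17.1, numpy 2.4.6 and matplotlib 3.10.9 under Python 3.11.15.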

Additional observations from a re-analysis of the deposited data

Results flagged for a closer look

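Other transcripts are annotated inside the span of some of these genes, and those with at least 3 inferred reads are given here because they lie outside the comparisons above. Within *Reln*, *Gm10475*, on the opposite strand, had an RPKM of 298.66 in ES cells (439 reads) and 292.72 in E10.5 forebrain (642 reads). It shares 246 bp of exon with *Reln*, or 1.2% of the exons of *Reln* and 13.7% of its own. *Reln* itself had only 57 reads in ES cells, and the part of *Gm10475* in that value was not tested. The pseudogene *Dnaja1-ps*, on the same strand as *Reln* but sharing no exon, had 1060.24 in ES cells and 999.39 in forebrain, and its reads can be shared with other copies. *Gm16111* had 12.85 in ES cells from 3 reads and *Gm16110* had 6.43 in forebrain from 7 reads, both opposite to *Reln*. *Gm13116*, opposite to *Trp73* and sharing 280 bp of exon (5.1% of those of *Trp73*), had 5.01 in ES cells and 2.99 in forebrain, from 9 and 8 reads. *Gm12158*, opposite to *Ebf1*, had 15.48 and 11.68, and *Gm6878*, opposite to *Ebf2*, had 6.49 in forebrain from 16 reads. Whether reads on either strand were counted for these genes is not given in the sources used here.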

How the results depend on the processing

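Of 161 alternatives, 13 moved a result outside its range or, for a count, by more than 1.5 times, and 0 turned the direction of a called gene. For a log2 ratio this range pairs opposite ends of the Poisson intervals of both samples, unlike the Clopper-Pearson intervals of the folds. For the median it is the range of *Tbr1*, the median gene (2.99 to 4.49), and not an interval of the median itself. The small ratios of *Trp73* (-0.07 with the same upper quartile, -0.32 with the same median) and *Calb2* (-0.16 with the same median) changed sign. The count of 6 called genes stayed at 6 under every alternative run for it. Genes with reads in ES cells numbered 5 with at least 10 reads and 8 with any RPKM above 0. With the same upper quartile and the same median, respectively, the genes called higher in forebrain numbered 2 and 2 for Reelin signalling, 9 and 8 for pan-neuronal genes and 7 and 7 for the neurogenic bHLH network. With the same median they numbered 4 for relatives and cofactors (*Calb1* lost) and 3 for ganglia and placodes (*Eya1* lost). A pseudocount of 5 in place of 1 lowered the median log2 ratio of the 9 genes to 2.92. With both samples scaled to the same median, 1 Reelin signalling gene, *Yes1*, was called higher in ES cells. Scaling moved the median log2 ratio of all genes to 0.26 (same sum), -0.06 (same upper quartile), -0.3 (same median) and 0.1 (same number of inferred reads on genes). The log2 ratio of the 6 called genes stayed between 3.31 and 8.35 over the scalings, and that of *Ebf1* between 0.22 and 0.84. The fitted ratio of *Ebf3*, which had no read in ES cells, ran from 5.91 to 11.53 with the pseudocount. No paired analysis was possible because each group has 1 sample, and for the same reason no replicate could be left out. Depth limits the values of *Ebf2*, *Ebf3* and *Nhlh2* in ES cells, which rest on 0 to 2 reads.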
